A study of Mus musculus with 28 samples.

Results

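Six-family proteins are homeodomain transcription factors and Eya proteins are their coactivators, and 7 genes of these families are described here: Six2, Six4, Six5, Eya1, Eya2, Eya3 and Eya4. They were chosen by name, as the rows with these symbols in the 4 deposited gene tables of mouse satellite cells. All 7 were found among the 22552 genes that each table lists, and all 7 passed the filter on low counts in each of the 4 comparisons. In WT cells, Eya2 and Six5 fell between freshly isolated satellite cells and proliferating culture, by 10.1-fold and 6.02-fold. Six4 and Eya3 had higher means in culture, at a level of support that depended on the test and the libraries. Between SIRT1mKO and WT cells, no member passed the threshold in any state with edgeR. Eya1 in fresh cells had the lowest adjusted p of the members, 0.695 with edgeR, and was 1.58-fold higher in SIRT1mKO. DESeq2 called Eya1 there, with an adjusted p of 0.0323.

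A Six-family protein binds DNA at a motif named MEF3, and an Eya protein, which does not bind DNA itself, joins it there and brings activating cofactors. Eya proteins are also phosphatases, and Dach proteins and Groucho-related Tle proteins are known as partners that lower the activity of the complex. In the embryo this network acts upstream of Myf5, Myod1 and Myog, and in adult muscle it is known for fast fibre and glycolytic genes. Satellite cells are the Pax7-positive stem cells of muscle, which leave quiescence after injury, divide as myoblasts and fuse into fibres.

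The MEF3 core was searched as TCAGGTTTC on both strands in the RefSeq promoter windows of GRCm38.p6, which run from 250 bases before to 50 bases after a gene's start. It was found in 141 of 32851 windows, or 0.429%. The 2 windows with a match among the members and the listed genes of their network belong to Six4 and to Myog, which encodes the myogenic factor of differentiation. The stretch of each is shown because the MEF3 site is where these factors are known to act on Myog, with the motif in capitals.
Myog, chr1:134289910-134289939, plus strand: agaggggggcTCAGGTTTCtgtggcgttgg
Six4, chr12:73113325-73113354, in the sense of the gene, which lies on the minus strand: tggcctggggGAAACCTGAtcggccagatc
In Myog the motif reads along the gene, from 84 to 76 bases before the start. In Six4 its reverse complement lies 99 to 91 bases before one annotated start, and its first base is 81 bases past the other. A window was listed for 5 of the 7 members, not for Eya1 or Eya2, and for 24 of the 34 listed network genes. A match describes letters and is no measured binding site.

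The 18 polyA RNA-seq libraries came from satellite cells isolated by FACS. WT mice had a C57Bl/6 background. SIRT1mKO mice (KO in the group names) carried a Pax7 Cre knock-in allele and a floxed exon 4 of Sirt1, the gene of an NAD-dependent deacetylase, so that excision follows Pax7 expression. FI cells were freshly isolated and quiescent, Cul cells were proliferating in culture (20% fetal bovine serum, with bFGF at 12.5 ng/ml), and Diff cells spent 24 hours in 2% horse serum. WT libraries numbered 5 in FI, 4 in Cul and 2 in Diff, and KO libraries 3, 2 and 2, while 10 ChIP samples were not analysed here.

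The 4 tables are KO_FI with WT_FI (3 against 3), KO_Cul with WT_Cul, KO_Diff with WT_Diff, and WT_Cul with WT_FI (2 against 2 each), and they hold 18 distinct libraries. The library totals ran from 24254119 to 82825550 estimated fragments. A library is named by its group and by its index in the table, counted from 0. Levels are CPM, fragments relative to library sizes scaled by TMM within a table. Nothing in the labels ties libraries to separate animals, so the p-values cover the spread between libraries alone, which may be technical. In the table of WT states, the WT_FI libraries stood apart from those of the FI table: Pax7 was at 117 and 138 CPM against 832 to 1059 CPM. The Diff libraries with index 1 held 2015 (WT) and 3619 (KO) CPM of Myog, and those with index 0 held 61.2 and 149 CPM. Sirt1 was at 47.4 to 81.4 CPM in WT_FI and 37.6 to 63.4 CPM in KO_FI. In the Cul table it was at 62.2 and 66.8 CPM in WT_Cul and 33.8 and 46.9 CPM in KO_Cul. For index 0 and index 1 of the Diff table the values were 52.1 and 28.2 CPM in WT_Diff and 41.4 and 28.8 CPM in KO_Diff. These values count the whole transcript and do not check the removal of exon 4.

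**Figure D1:**
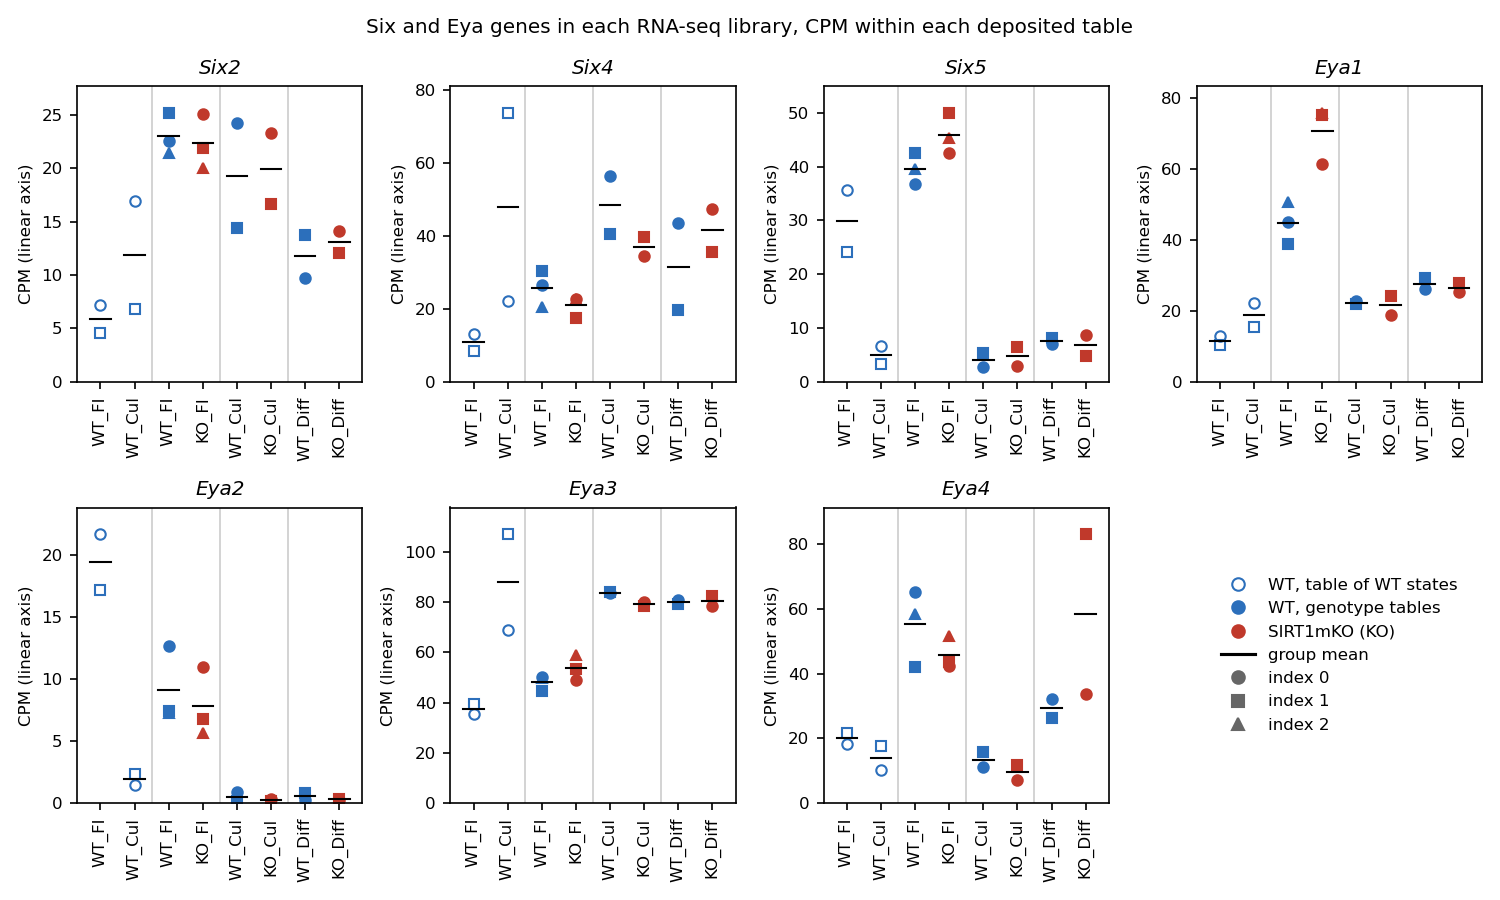
CPM of the 7 genes in each library, on a linear axis from 0; open symbols are the table of WT states, filled blue symbols WT and red symbols SIRT1mKO in the genotype tables, symbol shape gives the index and bars are group means. Six5 and Eya2 are higher in FI than in Cul and Diff, Eya1 is at 61.4 to 75.8 CPM in KO_FI against 38.8 to 50.5 CPM in WT_FI, and Eya4 reaches 83.1 CPM in 1 KO_Diff library.

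To set the genes beside each other, levels per length are needed, and the deposited FPKM values (fragments scaled by transcript length and by depth) were used for this alone. In the 3 WT_FI libraries of the FI table, Six5 led with 13.7 ± 0.874 FPKM (SD, n = 3). It was followed by Eya4 (13.0 ± 2.91 FPKM), Six2 (11.1 ± 0.881 FPKM), Eya1 (9.92 ± 1.32 FPKM), Eya3 (8.90 ± 0.679 FPKM), Six4 (4.38 ± 0.850 FPKM) and Eya2 (3.87 ± 1.35 FPKM). Neighbours in this order overlapped between libraries, except Eya3 and Six4.

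The WT_FI libraries of the table of WT states gave a different order below Six5, which again led, with 10.4 ± 2.79 FPKM (SD, n = 2). Eya2 came next (8.33 ± 1.30 FPKM), then Eya3 (7.03 ± 0.499 FPKM), Eya4 (4.76 ± 0.573 FPKM), Six2 (2.84 ± 0.868 FPKM), Eya1 (2.58 ± 0.399 FPKM) and Six4 (1.87 ± 0.551 FPKM). Eya2 was thus the lowest of the 7 in one set of fresh libraries and ranked 2 in the other. Of the neighbours here, Six5 and Eya2 overlapped and so did Six2 and Eya1, and the others did not.

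In proliferating WT cells of the Cul table the order was another. Eya3 led with 16.4 ± 0.240 FPKM (SD, n = 2), and Six2 (9.81 ± 3.43 FPKM) and Six4 (8.75 ± 1.97 FPKM) came next and overlapped. Eya1 (5.23 ± 0.125 FPKM), Eya4 (3.36 ± 0.810 FPKM), Six5 (1.48 ± 0.707 FPKM) and Eya2 (0.227 ± 0.228 FPKM) followed, each below the one before it in both libraries. Six5 thus ranked 1 of the 7 in both sets of fresh libraries and 6 in culture, and Eya3 ranked 5 (FI table) or 3 (table of WT states) in fresh cells and 1 in culture.

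In WT_Diff, Eya3 was again highest, at 15.4 ± 0.592 FPKM (SD, n = 2). Eya4, Eya1, Six2 and Six4 lay between 5.66 and 7.21 FPKM on average and overlapped with their neighbours. Six5 (2.72 ± 0.189 FPKM) and Eya2 (0.247 ± 0.175 FPKM) were again the lowest.

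The comparison of WT_Cul with WT_FI sets proliferating culture beside quiescent cells. Its WT_Cul libraries in the table of WT states were unlike each other in differentiation markers. The 7 of these found summed to 3026 CPM at index 0 and 134 CPM at index 1, against 578 and 243 CPM in WT_FI. For 7 mature fibre markers the sums were 826 and 13.2 CPM, against 133 and 46.85 CPM. The part of these lists in the member differences was not tested. In the table of WT states, 2 of the 7 members fell, Eya2 and Six5, and 0 rose with edgeR, while 4 had an unadjusted p under 0.05 and DESeq2 also called Six4 and Eya3 higher. Of all genes tested there, 28.6% passed the threshold (12.6% higher and 16% lower in WT_Cul), so a count of 2 in 7 is near the background. The groups did not overlap for 6 members, 3 higher and 3 lower, where the background was 70.9% (35.5% higher and 35.4% lower).

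Eya2, known from the embryonic myotome, measured 21.7 and 17.2 CPM across WT_FI libraries, against 1.48 and 2.34 CPM for WT_Cul. Both fresh libraries lay far above both cultured ones. The log2 difference was -3.34 (SE 0.49), with an adjusted p of 0.0146 (edgeR, n = 2 against 2). The WT libraries of the genotype tables gave a second set, with 12.7, 7.43 and 7.27 CPM in WT_FI and 0.871 and 0.146 CPM in WT_Cul. Joined on fragments, they gave a log2 difference of -3.79 (SE 0.87), with an adjusted p of 0.0126 (edgeR, n = 2 against 3). The 2 values of the second WT_Cul group rested on 68 and 12 fragments.

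Six5, whose gene is the neighbour of the myotonic dystrophy kinase gene Dmpk, had 35.6 and 24.1 CPM in WT_FI cells and 6.56 and 3.35 CPM in WT_Cul cells. The fresh libraries were the higher ones without overlap. This gave a log2 difference of -2.59 (SE 0.53), with an adjusted p of 0.0248 (edgeR, n = 2 against 2), which became 0.0984 without the WT_FI library with index 0. In the genotype tables, Six5 reached 36.8, 42.6 and 39.5 CPM in WT_FI, compared with 2.69 and 5.37 CPM in WT_Cul, and the log2 difference was -2.94 (SE 0.34, adjusted p 0.00165 with edgeR). Six5 overlaps Bhmg1 and Six4 overlaps Mnat1 in the RefSeq annotation (gaps of -278 and -1846 bases, where a minus sign marks overlap). No source states that strand was used in counting, so fragments within these stretches cannot be told apart. The share of such fragments was not measured.

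Six4, which is known to activate Myog through MEF3 sites, measured 13.2 and 8.54 CPM across WT_FI libraries, against 22.2 and 73.8 CPM for WT_Cul. Both cultured libraries were higher, but they lay far apart. The log2 difference was 2.15 (SE 0.68), with an adjusted p of 0.0675 (edgeR, n = 2 against 2), and over its alternatives the adjusted p ran from 0.000940 to 0.213. It was 0.00729 with DESeq2, 0.0559 with the index as a block and 0.112 with limma on FPKM. Without the WT_Cul library with index 1 the log2 difference was 1.03, and without the one with index 0 it was 2.73. DESeq2 called 18.3% of genes higher and 21% lower. In the genotype tables, Six4 had 26.4, 30.4 and 20.4 CPM in WT_FI cells and 56.5 and 40.5 CPM in WT_Cul cells, with a log2 difference of 1.28 (SE 0.26, adjusted p 0.00821 with edgeR).

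Where Six4 differed within a group, Myog differed the other way in the WT_Cul libraries of WT states and in the Diff table. The WT_Cul library with 22.2 CPM of Six4 held 807 CPM of Myog, and the one with 73.8 CPM held 9.05 CPM. In WT_Diff the library with 43.5 CPM of Six4 held 61.2 CPM of Myog, and the one with 19.6 CPM held 2015 CPM. In KO_Diff the values were 47.5 and 35.6 CPM of Six4 beside 149 and 3619 CPM of Myog. In the Cul table, where Myog was at 0.377 to 12.1 CPM, WT_Cul went the same way as Myog and KO_Cul the other way. Among WT_FI libraries, the one with most Myog, at 230 CPM in the table of WT states and 225 CPM in the FI table, held the most Six4. These are single libraries and were not tested.

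Eya3, the member with the highest cultured level, reached 35.4 and 39.4 CPM in WT_FI, compared with 69.0 and 106.9 CPM in WT_Cul. Every cultured library exceeded every fresh one. This gave a log2 difference of 1.24 (SE 0.37), with an adjusted p of 0.0614 (edgeR, n = 2 against 2), against 0.0330 with DESeq2 and 0.0248 with the index as a block in edgeR. In the genotype tables, Eya3 measured 50.3, 44.4 and 49.8 CPM across WT_FI libraries, against 83.4 and 84.0 CPM for WT_Cul. That log2 difference was 1.16 (SE 0.15), with an adjusted p of 0.00213 (edgeR).

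For the other 3 members the 2 sets differed in the size of the difference (Six2), its call (Eya4) or its sign (Eya1). Six2, known for kidney progenitors and connective tissue, had 7.13 and 4.56 CPM in WT_FI cells and 16.9 and 6.80 CPM in WT_Cul cells, which overlapped. Its log2 difference was 1.02 (SE 0.61, adjusted p 0.255) in the table of WT states and 0.11 (SE 0.28, adjusted p 0.739) in the genotype tables, both with edgeR. Leaving out the WT_Cul library with index 1 gave Six2 a log2 difference of 1.53 and an adjusted p of 0.0200.

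Eya1, a partner of Six-family factors and Pax3 in the embryo, reached 12.8 and 10.2 CPM in WT_FI, compared with 22.1 and 15.3 CPM in WT_Cul of the table of WT states. The cultured libraries were higher there, with a log2 difference of 0.70 (SE 0.42, adjusted p 0.252 with edgeR). In the genotype tables the sign was opposite: WT_FI held 45.1, 38.8 and 50.5 CPM and WT_Cul 22.8 and 21.7 CPM, with a log2 difference of -0.65 (SE 0.19, adjusted p 0.0288 with edgeR). Eya1 therefore had no direction that both sets share.

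Eya4, known from inherited hearing loss and cardiomyopathy, measured 18.4 and 21.6 CPM across WT_FI libraries, against 10.4 and 17.7 CPM for WT_Cul. It was lower in culture in both sets, with a log2 difference of -0.51 (SE 0.44, adjusted p 0.416) in the table of WT states and -1.68 (SE 0.27, adjusted p 0.00408) in the genotype tables, both with edgeR. In the latter, WT_FI held 65.3, 42.0 and 58.4 CPM and WT_Cul 11.3 and 15.7 CPM.

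**Figure D2:**
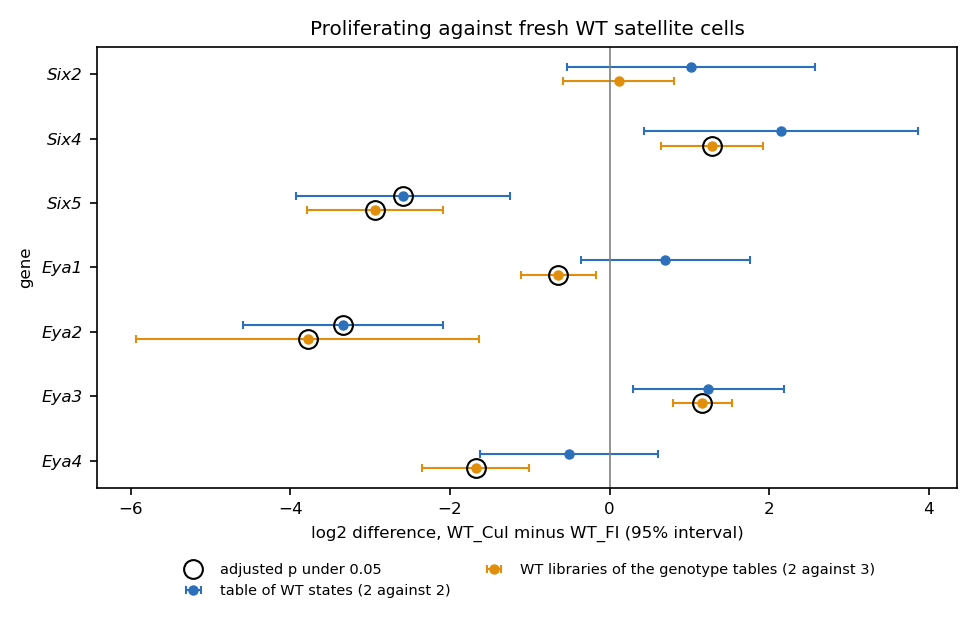
Log2 difference of WT_Cul minus WT_FI with its 95% interval for each gene, in the table of WT states (blue) and in the WT libraries of the genotype tables (orange); rings mark an adjusted p under 0.05 with edgeR. Eya2 and Six5 lie left of 0 with rings in both sets, and Eya1 lies at 0.70 in one set and at -0.65 in the other.

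In the genotype tables, 60.1% of all genes passed (27.6% higher and 32.6% lower in WT_Cul), and 6 of the 7 members did, 2 higher and 4 lower. There each state comes from its own table, so state and table cannot be told apart. Markers of other cell types moved with the comparison in both sets. The summed level of 9 fibroblast markers was 19940 to 28890 CPM in WT_FI and 989 to 1705 CPM in WT_Cul of the table of WT states, and 4929 to 6695 CPM and 76.8 to 195 CPM in the genotype tables. The fibroblast marker Tcf21 was at 0 in 1 of the WT_Cul libraries of WT states, in both of the Cul table and in 1 WT_FI library of the FI table. For 5 Schwann cell markers the sums were 1880 to 1982 CPM in WT_FI and 332 to 684 CPM in WT_Cul of WT states, and 738 to 801 CPM and 26.7 to 37.7 CPM in the genotype tables. Pericyte and smooth muscle markers fell too, from 22370 to 30810 CPM to 2150 to 2189 CPM in WT states. The satellite cell and myoblast list went opposite ways in the 2 sets. It summed to 1848 to 2110 CPM in WT_FI and 2345 to 5769 CPM in WT_Cul of WT states. In the genotype tables it was at 4328 to 5225 CPM and 3484 to 3749 CPM. The part of these lists in the member differences, the falls of Eya2 and Six5 among them, was not tested. In such bulk libraries, fewer cells of a type and less RNA per cell cannot be told apart.

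Since WT_FI levels differed between tables, the 2 sets of WT_FI libraries were compared with each other, a comparison added after the values were seen. Joined on fragments, 4 of the 7 members were higher in the FI table with edgeR, against 7.35% of all genes called higher and 11.1% called lower. Eya1 was at 40.8, 34.6 and 45.3 CPM on the joined scale in the FI table and at 12.0 and 9.73 CPM in the table of WT states. Every library of the first table lay above both of the second. The log2 difference was 1.88 (SE 0.21, adjusted p 0.0168 with edgeR).

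Six2 behaved likewise, with a log2 difference of 1.90 (SE 0.26, adjusted p 0.0187 with edgeR). The values for Eya4 were 1.38 (SE 0.26, adjusted p 0.0275) and for Six4 1.17 (SE 0.28, adjusted p 0.0435), both with edgeR. Eya2 went the other way, with a log2 difference of -1.16 (SE 0.33) and an adjusted p of 0.0607 (edgeR), against 0.0102 with DESeq2, which called 17.4% of genes lower. Eya3 (0.28, adjusted p 0.258) and Six5 (0.33, adjusted p 0.291) did not pass with edgeR. All 4 calls were lost when either WT_FI library of the table of WT states was left out, where 0 genes passed with edgeR. The call for Six4 was also lost without any one library of the FI table, and the call for Eya4 without the one with index 2.

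Beside this, 9 satellite cell and myoblast markers summed to 4328 to 5225 CPM in the FI table and to 1848 to 2110 CPM in WT_FI of the table of WT states. Fibroblast markers summed to 4929 to 6695 CPM and 19940 to 28890 CPM, and 7 pericyte and smooth muscle markers to 3330 to 8154 CPM and 22370 to 30810 CPM. The part of these lists in the member levels was not tested.

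**Figure D3:**
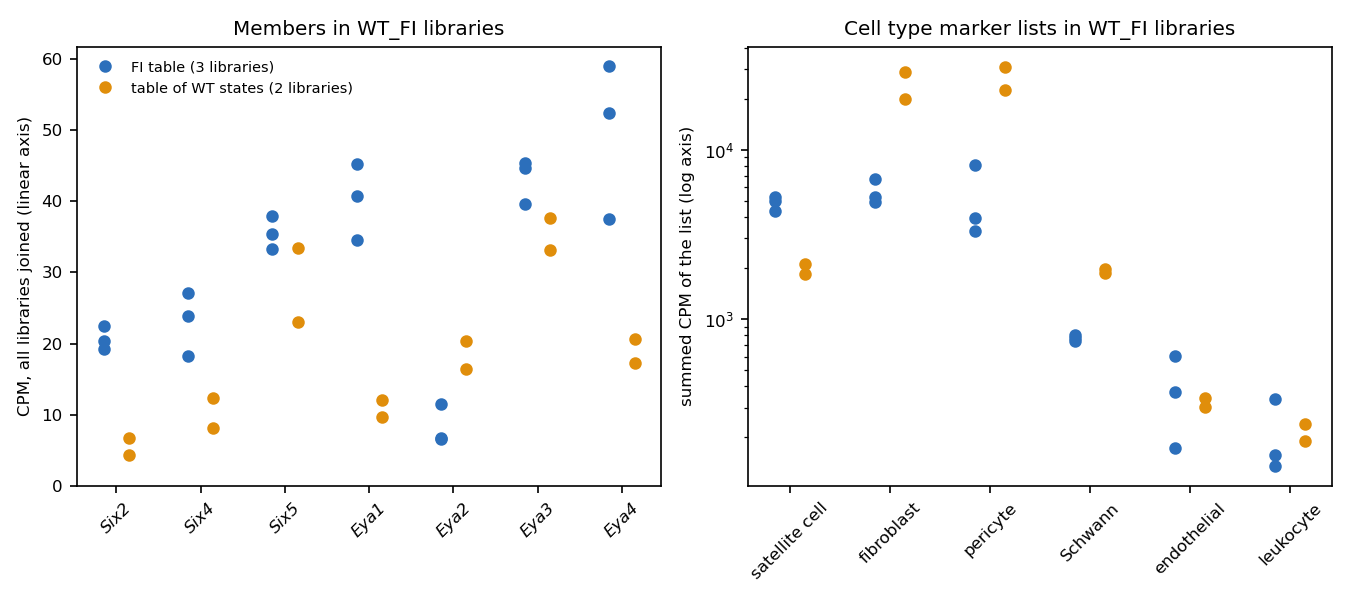
Left, CPM of the 7 genes on the joined scale (linear axis) in the WT_FI libraries of the FI table (blue, 3) and of the table of WT states (orange, 2); right, summed CPM of cell type marker lists within each table (log axis). Six2, Six4, Eya1 and Eya4 are higher in the FI table, Eya2 is higher in the table of WT states, and the fibroblast and pericyte sums are higher in the latter.

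The comparison of KO_FI with WT_FI asks what differs in fresh SIRT1mKO cells. The Pax7 Cre allele is named for SIRT1mKO mice alone, so its part and that of Sirt1 excision cannot be told apart. None of the 7 members passed with edgeR, against 0% of 15146 genes, while 1 member and 621 of all genes had an unadjusted p under 0.05. The groups did not overlap for 2 members, both higher in KO_FI, where 9.22% of genes did not overlap, 5.57% higher and 3.65% lower.

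Eya1 had 45.1, 38.8 and 50.5 CPM in WT_FI cells and 61.4, 75.2 and 75.8 CPM in KO_FI cells. All 3 KO_FI libraries were above all 3 WT_FI libraries. This gave a log2 difference of 0.66 (SE 0.14, 95% interval 0.31 to 1.01), with a raw p of 0.00349 and an adjusted p of 0.695 (edgeR, n = 3 against 3). DESeq2 gave an adjusted p of 0.0323 and called 0.487% of genes higher, 68 of them, and the adjusted p over all alternatives ran from 0.0323 to 1.00. Without one library at a time, the log2 difference stayed between 0.56 and 0.76.

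The sums of each cell type marker list overlapped between genotypes in fresh cells. Satellite cell and myoblast markers summed to 4328 to 5225 CPM in WT_FI and 4498 to 5442 CPM in KO_FI. Fibroblast markers summed to 4929 to 6695 CPM and 4674 to 6849 CPM. The part of these lists in the Eya1 difference was not tested. The log2 difference of Eya1 between the 2 sets of WT_FI libraries, 1.88, exceeded the 0.66 between genotypes. The first was taken between tables and the second within the FI table, so the 2 are unlike comparisons.

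Six5 reached 36.8, 42.6 and 39.5 CPM in WT_FI, compared with 42.6, 49.99 and 45.3 CPM in KO_FI. The lowest KO_FI value was 42.61 CPM and the highest WT_FI value 42.58 CPM, so the groups all but touched. At each index Six5 was higher in KO_FI, by 0.21, 0.23 and 0.20 on the log2 scale. The log2 difference was 0.21 (SE 0.11, adjusted p 1 with edgeR), and with the index as a block its SE was 0.083, its raw p 0.0460 and its adjusted p 0.609. With that block, 1231 of 15146 genes had an unadjusted p under 0.05, and 0 passed. The other 5 members overlapped between genotypes, with log2 differences from -0.29 for Six4 to 0.16 for Eya3.

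Six2 was among them, at 22.5, 25.2 and 21.4 CPM in WT_FI and 25.1, 21.9 and 20.0 CPM in KO_FI. Its log2 difference was -0.04, with a 95% interval from -0.37 to 0.28. For Eya4 the WT_FI values were 65.3, 42.0 and 58.4 CPM and the KO_FI values 42.3, 43.5 and 51.7 CPM. Eya2 in this table was highest in the index 0 library of each genotype, at 12.7 and 11.01 CPM against 5.68 to 7.43 CPM in the others. It was lower in KO_FI at each index, with log2 differences of -0.21, -0.13 and -0.36, and the block gave a raw p of 0.186 and an adjusted p of 0.696 (edgeR).

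In proliferating cells, no member passed in KO_Cul against WT_Cul with edgeR, against 0% of 13963 genes, and none with DESeq2, while 0 members and 112 genes had an unadjusted p under 0.05. The groups did not overlap for 2 members, Six4 and Eya3, both lower in KO_Cul, where 23% of genes did not overlap, 11.8% higher and 11.1% lower. Six4 measured 56.5 and 40.5 CPM across WT_Cul libraries, against 34.5 and 39.8 CPM for KO_Cul, so that the index 1 libraries were almost level. This gave a log2 difference of -0.39 (SE 0.25, adjusted p 1.00 with edgeR).

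Eya3 was the steadiest member there, at 83.4 and 84.0 CPM in WT_Cul and 80.0 and 78.5 CPM in KO_Cul. Its log2 difference was -0.08, with a 95% interval from -0.55 to 0.39. Eya4 had 11.3 and 15.7 CPM in WT_Cul cells and 7.25 and 11.8 CPM in KO_Cul cells, lower in KO at each index though the groups overlapped. Its log2 difference was -0.50 (SE 0.36, adjusted p 1.00 with edgeR), and with the index as a block its raw p was 0.0136 and its adjusted p 0.284. With that block, 1688 of 13963 genes had an unadjusted p under 0.05, and 3 passed. Eya1, which differed most in fresh cells, reached 22.8 and 21.7 CPM in WT_Cul, compared with 18.7 and 24.3 CPM in KO_Cul. Eya2 was between 0.132 and 0.871 CPM in all 4 libraries, on 11 to 68 fragments each, too few to show a small difference. Some marker sums also differed between genotypes without overlap in the Cul table. Pericyte and smooth muscle markers summed to 114 and 59.0 CPM in WT_Cul against 137 and 135 CPM in KO_Cul, and satellite cell and myoblast markers to 3484 and 3749 CPM against 4180 and 3811 CPM. Their part in the member values was not tested.

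In differentiating cells, no member passed in KO_Diff against WT_Diff with edgeR, against 0% of 14482 genes, and none with DESeq2, while 0 members and 27 genes had an unadjusted p under 0.05. Only Eya4 did not overlap, higher in KO_Diff, where 13.2% of genes did not overlap, 6.39% higher and 6.85% lower. It measured 32.3 and 26.2 CPM across WT_Diff libraries, against 33.7 and 83.1 CPM for KO_Diff. The index 0 libraries were almost level and the difference lay in the index 1 libraries, at a ratio of 3.17. The log2 difference was 1.00 (SE 0.55, adjusted p 1 with edgeR), and without the KO_Diff library with index 1 it was 0.23. With the index as a block it was 0.86, with a raw p of 0.00579 and an adjusted p of 0.267 (edgeR). In that fit 914 of 14482 genes had an unadjusted p under 0.05, and 147 passed.

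The differentiation markers moved with that library: 7 of them summed to 10340 CPM in WT_Diff and 23610 CPM in KO_Diff at index 1, and to 151 and 323 CPM at index 0. Myh3, the embryonic myosin heavy chain, was at 612 and 3933 CPM at index 1 and at 0.945 and 4.72 CPM at index 0. In WT_Diff the library with more Myh3 held less Eya4, and in KO_Diff the library with more Myh3 held more. These are single libraries and were not tested. Fibroblast markers summed to 425 and 283 CPM in WT_Diff against 707 and 589 CPM in KO_Diff, and 8 leukocyte markers to 10.1 to 13.0 CPM against 4.58 to 9.18 CPM, both without overlap. Tcf21 was at 0 in all 4 libraries and Lum in both at index 1. Of the 8 leukocyte markers, 6 were at 0 in WT_Diff at index 1 and 2 in each other Diff library. The leukocyte sums thus rest on few markers at low levels. The part of these lists in the Eya4 difference was not tested.

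Among the rest in Diff, Six4 was at 43.5 and 19.6 CPM in WT_Diff and 47.5 and 35.6 CPM in KO_Diff, and its log2 difference was 0.40 (SE 0.52). Eya3 was at 78.4 to 82.3 CPM in all 4 libraries, and Eya1 at 25.3 to 29.2 CPM. Six2 (9.73 to 14.1 CPM) and Six5 (4.82 to 8.63 CPM) overlapped between genotypes. Eya2 was at 0.267 to 0.851 CPM, so it stayed low in differentiation medium.

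**Figure D4:**
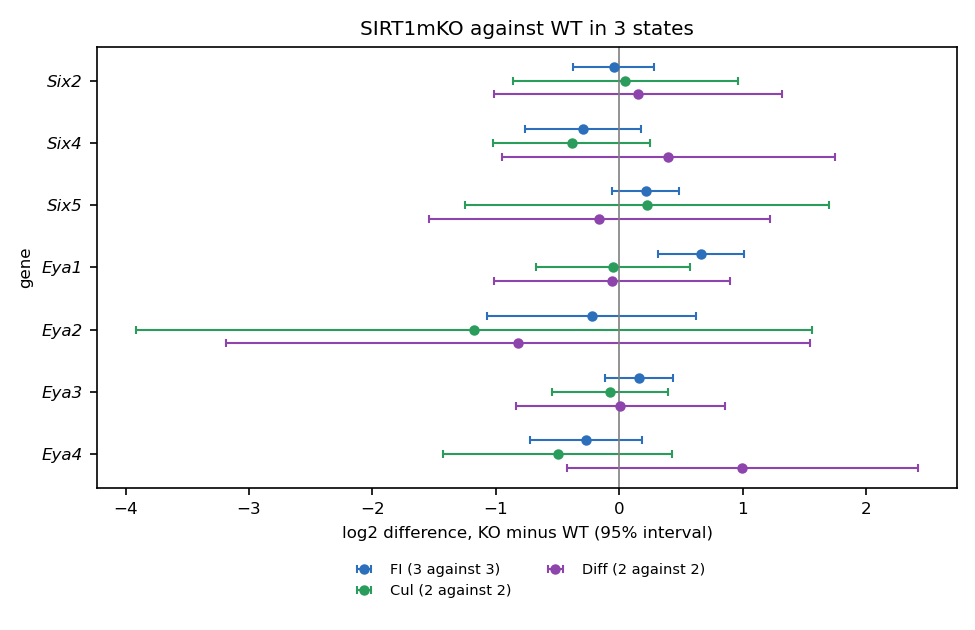
Log2 difference of SIRT1mKO minus WT with its 95% interval for each gene in FI (blue), Cul (green) and Diff (purple), from edgeR. The interval of Eya1 in FI, 0.31 to 1.01, is the only one drawn that leaves out 0, and no gene of the 7 passed after adjustment over all genes.

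Whether the SIRT1mKO difference depended on the state was tested directly, as the difference of the differences over the 14 libraries of the genotype tables. No gene passed in any of the 3 contrasts of states with edgeR (0% of 16698), and 196 to 245 genes had an unadjusted p under 0.05. No member passed in the alternatives run here, all in edgeR: the index as a block, no filter, DESeq2 size factors and each library left out. DESeq2 itself and limma were not run on these contrasts. For Eya1, Cul minus FI was -0.69 (SE 0.27, raw p 0.0266) and Diff minus FI -0.70 (SE 0.27, raw p 0.0253), both with an adjusted p of 1 in edgeR. For Eya4, Diff minus FI was 1.28 (SE 0.51, raw p 0.0292) and Diff minus Cul 1.49 (SE 0.56, raw p 0.0225), again with an adjusted p of 1 in edgeR. Without the KO_Diff library with index 1 these fell to 0.51 and 0.72. The differences that share a state share its libraries.

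Among the other genes of the network, the list of partners and cofactors had 10 of 13 genes tested in WT_Cul against WT_FI. Of these, 4 fell and 0 rose with edgeR, where 16% of all genes fell and 12.6% rose, and the median log2 difference was -1.36 against 0.06 over all genes. The corepressor Tle2 was at 21.8 CPM on average in WT_FI and 2.49 CPM in WT_Cul, with a log2 difference of -3.13 (SE 0.42, adjusted p 0.0133). Dach1, which turns Six-family complexes toward repression, fell by 2.63 on the log2 scale, Sobp, a cofactor that binds Six-family proteins, by 2.37, and Tle1 by 1.27. The adjusted p-values of these 3 were 0.0262, 0.0404 and 0.0490 (edgeR).

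Of the 7 myogenic factors downstream, 1 rose and 1 fell, and of 14 muscle genes known to respond to Six-family or Eya factors, 3 rose and 1 fell. Both shares equal the 28.6% called over all genes, so neither count sets its list apart. Myod1, the commitment factor, had a log2 difference of 5.71 (SE 1.01, adjusted p 0.0190 with edgeR). For Mef2c, a transcription factor of muscle genes, it was -3.00 (SE 0.63, adjusted p 0.0262 with edgeR). Among the muscle genes, Eno3, the muscle enolase, rose by 4.04 on the log2 scale, Ccnd1, cyclin D1, by 2.26, and Ezr, which links membrane and actin, by 1.33. Pfkm, the muscle phosphofructokinase, fell by 1.88 in the same comparison.

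In the SIRT1mKO comparisons, no gene of the 3 lists passed with edgeR, among 10 partners, 7 myogenic factors and 12 to 14 muscle genes tested, and in Cul and Diff 0 of them had an unadjusted p under 0.05. In fresh cells, Tle1 (-0.46, raw p 0.00908), Pax3 (0.42, raw p 0.0114), Myod1 (-1.10, raw p 0.00799) and Pvalb (0.83, raw p 0.0256) had an unadjusted p under 0.05 in edgeR. Pax3 is the embryonic partner of Eya1, and Pvalb encodes the calcium buffer of fast fibres. Myod1 had 139, 252 and 135 CPM in WT_FI cells and 84.5, 94.3 and 66.1 CPM in KO_FI cells, without overlap. Its adjusted p was 0.822 (edgeR).

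Over all 18 libraries, the members fell into groups with unlike patterns. The Pearson correlation of log2 CPM was 0.857 for Six4 and Eya3, 0.776 for Six5 and Eya2, and 0.709 for Six2 and Eya1. Six5 and Eya3 had a correlation of -0.912, Eya2 and Eya3 of -0.907, Six4 and Eya2 of -0.761, and Six4 and Six5 of -0.757. Eya4 correlated with no member above 0.573. The points share states and tables, so these values describe those and carry no test.

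The genes most alike to each member over the 18 libraries, among 16737, were these. Six5 was nearest to Syt3 (0.983), H2-T23 (0.981) and Selenbp1 (0.980), and Eya2 to Rgs2 (0.980), Cldn19 (0.980) and Angptl7 (0.979). Eya3 was nearest to Rbm28 (0.971), Rrp12 (0.970) and Iars (0.969), and Six4 to Baz1a (0.947), Heatr3 (0.928) and Polr1a (0.926). Six2 was nearest to Irf2bp1 (0.924), Pcsk4 and Mex3d (both 0.909), Eya1 to Zic1 (0.919), Klhl26 (0.917) and Baat1 (0.914), and Eya4 to Pstpip2 (0.918), Nos1 and Gprin2 (both 0.901).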

How the data were processed

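The deposited tables follow the layout of Cuffdiff read group tracking, with 1 row for a gene in a library, per the file headers. Raw fragments as deposited are estimated counts; in a library, 1.42% to 8.18% of those above 0 lay more than 0.01 from a whole number, and all were rounded. FPKM was computed by the authors separately in each table, per the file headers. Bowtie, TopHat, SICER, Cuffdiff and mm9 are named in the submitters' processing notes, without roles or versions. The letter of the proliferating condition was assigned as the one left once the others were matched. The tables give a group and an index, not the replicate number of the labels.

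Genes whose status was not OK in a table (12 to 27) were left out there. Each comparison was fitted with edgeR 4.0.16 (quasi-likelihood F test, robust, TMM, filterByExpr, R 4.3.3), with Benjamini-Hochberg adjustment over all genes and a threshold of 0.05. The scripts were tested on simulated data. Alternatives were DESeq2 1.42.0, its size factors in edgeR, no filter, limma 3.58.1 on log2(FPKM + 1), the index as a replicate block, other WT libraries, and each library left out. DESeq2 and limma were not run on the differences of the SIRT1mKO effects between states. Within a group, no libraries were copies (lowest chi-square per degree of freedom 26.7). Libraries of the FI table with the same index deviated from their group means together (correlations of 0.866, 0.683 and 0.584), so the index was taken to pair them. The main tests left this pairing out, and only the block took it in. The pairs of the other tables gave 0.732 (Cul), 0.787 (Diff) and 0.387 (WT states). With 2 libraries in a group the deviations mirror each other, so libraries of unlike index gave the same sizes with a minus sign. Only the sign of these values can speak on pairing there. The block changed no member's call in a SIRT1mKO comparison.

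The members and lists were chosen with earlier results of these data known. Named beside the members were at most 4 genes of each list by smallest p and, for each member, the 3 genes with the highest correlation, predicted genes passed over. All per-sample columns were mapped.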

Additional observations from a re-analysis of the deposited data

How the results depend on the processing

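Groups of 2 or 3 libraries limit the precision of every value, and Eya2 rested on 11 to 68 fragments in the Cul table. Counts of genes past the threshold moved with the tool and the block. KO_FI against WT_FI gave 0 genes in edgeR and 118 with DESeq2 (68 higher, 50 lower). KO_Cul against WT_Cul gave 0, 3 with DESeq2 and 3 with the replicate block, and KO_Diff against WT_Diff gave 0 and 147 with the replicate block. The replicate block gave 0 genes in FI, 6176 against 4200 in WT_Cul against WT_FI, and 2 for the difference of the SIRT1mKO effects between Diff and FI. WT_Cul against WT_FI gave 2063 to 8050 genes without one library at a time and 9421 in the WT libraries of the genotype tables. WT_FI between tables gave 2827 genes, 5276 with DESeq2 and 0 to 3346 without one library at a time. With the WT libraries of the genotype tables, Eya1 turned to -0.65. The cause of these moves was not tested.

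Without one library at a time, these log2 differences, none of them called, spanned 0. For KO_FI against WT_FI, the ranges were Six2 from -0.13 to 0.030 and Eya2 from -0.55 to 0.10. For KO_Cul against WT_Cul, the ranges were Six2 from -0.28 to 0.46, Six5 from -0.47 to 0.80, Eya1 from -0.25 to 0.11 and Eya2 from -1.96 to 0.61. For KO_Diff against WT_Diff, the ranges were Six2 from -0.065 to 0.42, Six4 from -0.070 to 1.09, Six5 from -0.65 to 0.23, Eya1 from -0.13 to 0.022, Eya2 from -1.41 to 0.21 and Eya3 from -0.010 to 0.039. For the SIRT1mKO effect in Cul minus that in FI, the ranges were Six2 from -0.22 to 0.57, Six4 from -0.31 to 0.22, Six5 from -0.60 to 0.58, Eya2 from -1.74 to 0.90 and Eya4 from -0.55 to 0.067. For the effect in Diff minus that in FI, the ranges were Six2 from -0.0014 to 0.45, Six5 from -0.86 to 0.028 and Eya2 from -1.17 to 0.42. For the effect in Diff minus that in Cul, the ranges were Six2 from -0.34 to 0.45, Six5 from -0.93 to 0.26, Eya1 from -0.14 to 0.15 and Eya2 from -1.44 to 1.34.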
